A study of Homo sapiens with 6 samples.

Results

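The genes that encode islet hormones were examined by RNA-seq in the human β cell line EndoC-βH1, to ask whether their transcripts differ between cells treated with AZD7762 and cells treated with its vehicle DMSO. The members were the 9 genes INS, INS-IGF2, IGF2, IAPP, SST, GCG, PPY, PYY and GHRL, chosen by name and matched by Ensembl identifier. They are 9 of the 60671 gene identifiers counted in each sample. There were 3 samples treated with DMSO and 3 treated with 1 µM AZD7762, a kinase inhibitor of CHEK1 and CHEK2, and all 6 carried the wild-type genotype. Both groups spent 1 h in starvation medium (0.5 mM glucose) and a further 1 h in stimulation medium, with DMSO or AZD7762 present in both steps. The stimulation used either 0.5 or 20 mM glucose, and which of these was used for each library is not given. The line is a single immortalized line. The methods speak of independent replicates for the in vitro work in general, and the descriptions of these 6 samples do not say what made them separate, so p-values measure only the spread between these samples.

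DMSO replicates 1, 2 and 3 held 29402440, 26921225 and 20486391 counts on genes. AZD7762 replicates 1, 2 and 3 held 25494187, 21441444 and 21503144 counts. Levels are given as CPM, counts set to a common library total after scaling by edgeR's TMM factors. On this scale a count of 3, the floor used here, lay between 0.101 CPM (DMSO replicate 1) and 0.144 CPM (DMSO replicate 3). Of the 9 genes, 5 (INS, IGF2, IAPP, SST and GCG) passed the filter on low counts and were tested with 17649 genes in all, and 4 (INS-IGF2, PPY, PYY and GHRL) did not.

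In the islet, each hormone belongs mainly to 1 endocrine cell type. β cells make insulin and, in the same granules, islet amyloid polypeptide, while α cells make glucagon, δ cells somatostatin, PP cells pancreatic polypeptide and ε cells ghrelin. Somatostatin restrains the release of insulin and glucagon through its receptors. Most of these hormones are made as longer precursors that are cut by prohormone convertases and trimmed by carboxypeptidase E before they are stored. Secretion draws on stored hormone, so it can change without a change in the mRNA.

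INS lies on the minus strand of chromosome 11 at chr11:2181009-2182451 (GRCh37, as are all gene positions given here), and 656 bases of it are exonic. INS-IGF2, at chr11:2153768-2182439, is a read-through gene that starts in INS and ends in IGF2. IGF2, which encodes insulin-like growth factor 2, lies at chr11:2150342-2179621. INS and INS-IGF2 share 246 exon bases, which are 37.5% of INS and 13.5% of INS-IGF2, and INS-IGF2 and IGF2 share 1460, which are 80.0% of INS-IGF2 and 20.4% of IGF2. No exon base of INS-IGF2 is free of other genes, whereas 410 bases of INS are its own. How reads in shared exons were counted is not given in the sources used here, so the split of reads among these 3 genes is uncertain.

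**Figure D1:**
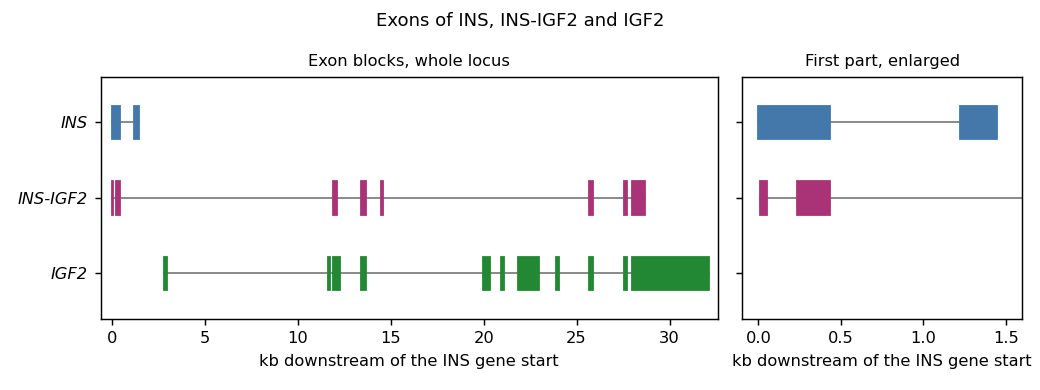
Exon blocks of INS, INS-IGF2 and IGF2 in kb downstream of the start of INS, for the whole locus (left) and its first part (right), with thin lines for the span of each gene. INS-IGF2 uses 246 exon bases of INS and 1460 of IGF2, and INS and IGF2 share none.

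The exon that tells the INS and INS-IGF2 transcripts apart is the one that follows their shared exon of 204 bases (chr11:2182015-2182218). In INS it is reached over an intron of 787 bases (chr11:2181009-2181227), and in INS-IGF2 over one of 11439 bases (chr11:2170356-2170575). The junctions are shown from 5′ to 3′ as read on the minus strand of GRCh37, with the last 25 bases of the shared exon in lower case and the first 25 bases of the next exon in capitals.
INS: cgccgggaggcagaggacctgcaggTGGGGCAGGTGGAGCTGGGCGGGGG
INS-IGF2: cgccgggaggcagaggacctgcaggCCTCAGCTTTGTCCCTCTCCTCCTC
Gene counts do not report which of these junctions a read crossed.

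INS was the most abundant of the 9 transcripts, and its level did not differ between the groups beyond the spread of the replicates. INS (ENSG00000254647) was measured at 1100, 1014 and 1661 CPM in DMSO replicates 1, 2 and 3. With AZD7762 it was measured at 1481, 1130 and 1614 CPM. DMSO replicate 3 was the highest of the 6 samples and AZD7762 replicate 2 lay among the low ones, so the groups overlapped. The means were 1258 ± 351 and 1409 ± 250 CPM (SD, n = 3 each), with a log2 fold change of 0.16 (SE 0.165, 95% interval -0.20 to 0.52, edgeR quasi-likelihood adjusted p = 0.805). The interval runs from 0.873-fold to 1.44-fold, which leaves room for changes of that size in either direction. Without DMSO replicate 3 the log2 fold change was 0.42 (adjusted p = 0.0978), and without DMSO replicate 2 it was 0.02. The sum of INS and INS-IGF2 counts gave 0.163, and the sum of all 3 genes of the locus gave 0.145.

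INS-IGF2 (ENSG00000129965) was assigned 8, 4 and 3 counts with DMSO and 5, 4 and 4 counts with AZD7762. Because it has no exon base of its own, these counts, 15 and 13 in all, are not a measure of the level of the transcript.

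IGF2 (ENSG00000167244) was measured at 208, 235 and 259 CPM with DMSO. With AZD7762 it was measured at 221, 226 and 275 CPM. The samples of the groups were interleaved. The means were 234 ± 25.5 and 241 ± 29.8 CPM (SD, n = 3 each), with a log2 fold change of 0.04 (SE 0.0938, 95% interval -0.16 to 0.25, edgeR adjusted p = 0.918).

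IAPP (ENSG00000121351, chr12:21507893-21532914), which encodes the amyloid polypeptide released together with insulin, was measured at 21.1, 20.2 and 17.3 CPM with DMSO. With AZD7762 it was measured at 19.1, 20.1 and 19.4 CPM. All 3 AZD7762 samples lay inside the range of the DMSO samples. The log2 fold change was -0.0041 (SE 0.0881, 95% interval -0.20 to 0.19, edgeR adjusted p = 0.994), which leaves room for changes between 0.873-fold and 1.14-fold.

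SST was the 1 tested hormone gene of 5 whose groups did not overlap, a share near the 15.0% of all genes tested. SST (ENSG00000157005, chr3:187386700-187388182), the gene for somatostatin, was measured at 227, 202 and 214 CPM with DMSO. With AZD7762 it was measured at 265, 253 and 242 CPM. Each AZD7762 sample was above each DMSO sample. The means were 214 ± 12.4 and 253 ± 11.5 CPM (SD, n = 3 each), a 1.18-fold difference (95% interval 1.07 to 1.30, log2 fold change 0.24, SE 0.0633). It did not pass the threshold of 0.05 over all genes tested (edgeR adjusted p = 0.160). When no filter on low counts was used the adjusted p was 0.0481, in a fit that called 0.950% of its genes. In the 6 fits that left out a sample, the adjusted p lay between 0.131 and 0.627.

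The share of counts on mitochondrial genes also separated the groups, at 1.57%, 2.13% and 2.12% in the DMSO samples and 2.26%, 2.28% and 2.63% in the AZD7762 samples. It therefore split the samples in the same way as SST and every gene named here whose groups do not overlap. Its direction was that of SST and opposite to that of genes that were lower, such as NEUROD1 and SSTR2. With mitochondrial genes left out of the table, an alternative chosen after seeing the data, the log2 fold change of SST was 0.24 (edgeR adjusted p = 0.155), and the part of RNA quality in these differences was not tested.

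GCG (ENSG00000115263, chr2:162999392-163008914), the gene for glucagon and the glucagon-like peptides, was present at a low level, with 41, 40 and 28 counts in the DMSO samples. The AZD7762 samples held 28, 41 and 33 counts. In CPM these were 1.39, 1.47 and 1.34 with DMSO, and 1.11, 1.95 and 1.55 with AZD7762, which held both the lowest and the highest sample. The log2 fold change was 0.11 (SE 0.227, 95% interval -0.38 to 0.61, edgeR adjusted p = 0.914).

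PPY, PYY and GHRL lay near the floor of 3 counts. PPY, the gene for pancreatic polypeptide, held 2, 1 and 0 counts with DMSO and 2, 0 and 2 counts with AZD7762. PYY, the gene for peptide YY, a relative of pancreatic polypeptide, held 5, 6 and 6 counts with DMSO and 9, 9 and 13 counts with AZD7762. Its CPM were 0.169, 0.220 and 0.287 in the DMSO samples and 0.357, 0.427 and 0.609 in the AZD7762 samples. The groups did not overlap, as for 15.0% of all genes tested, which do not include PYY. In the fit without a filter its log2 fold change was 1.04 (SE 0.476, edgeR adjusted p = 0.585), on 17 and 31 counts in all. GHRL, the gene for ghrelin, held 2, 2 and 3 counts with DMSO and 7, 6 and 1 counts with AZD7762, and 18.1% of its exon bases overlap a gene on the opposite strand. At these counts a difference of PPY or GHRL was not detectable.

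**Figure D2:**
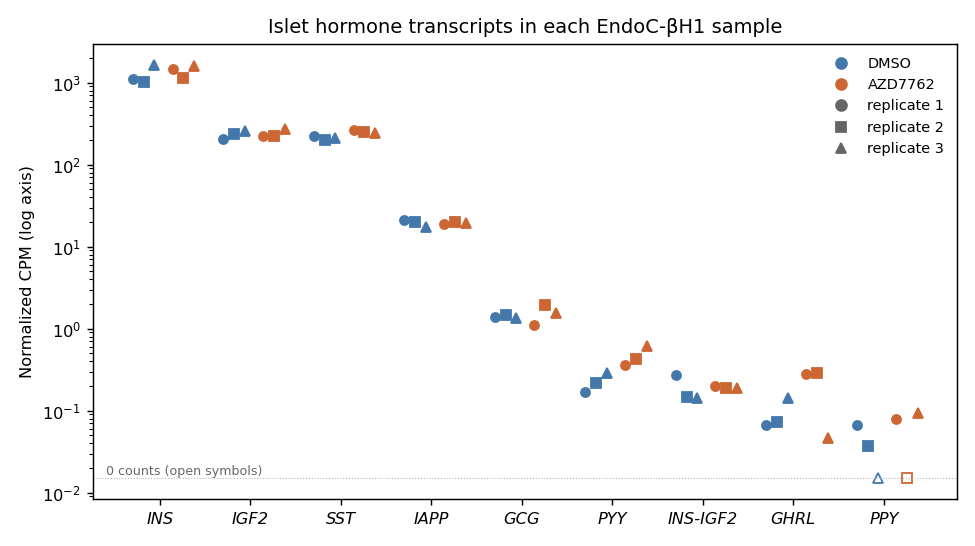
Normalized CPM (log axis) of the 9 hormone genes in each sample, ordered by level, with DMSO in blue, AZD7762 in orange and open symbols for 0 counts. The levels run from 1014 to 1661 CPM for INS to 0 counts of PPY in 2 samples. The groups are apart for SST and PYY, as for 15.0% of all genes tested, and PYY has only 5 to 13 counts per sample.

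Of the 5 tested hormone genes, 0 were called by edgeR at an adjusted p under 0.05, against 125 of all 17649 genes (0.708%), and DESeq2 also called 0, against 0.992% of all genes. At an unadjusted p under 0.05 there was 1 of the 5, SST, against 9.68% of all genes. The log2 fold change was above 0 for 4 and below 0 for 1, with a median of 0.11 beside 0.0076 over all genes. All 9 together summed to 1558, 1474 and 2152 CPM with DMSO and to 1988, 1633 and 2153 CPM with AZD7762 (means 1728 ± 370 and 1925 ± 266 CPM, SD). INS made up 72.2 ± 4.38% of the sum with DMSO and 72.9 ± 3.19% with AZD7762.

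The order of the levels was compared per kb of exon. INS stood at 1918 ± 535 CPM per kb with DMSO (SD, n = 3), which ranked 4 among the 34302 genes with a level per kb. SST followed at 353 ± 20.5 CPM per kb and rank 39. IGF2 stood at 32.7 ± 3.57 CPM per kb, rank 1379, and IAPP at 9.09 ± 0.919 CPM per kb, rank 5156. GCG came next at 0.588 ± 0.0275 CPM per kb and rank 14947, and these 5 genes were separated by more than their SDs. PYY was at 0.190 ± 0.0499 CPM per kb, while GHRL at 0.0458 ± 0.0204 and PPY at 0.0350 ± 0.0340 rested on a few reads each and their SDs overlapped. INS-IGF2 was left out of this order. With AZD7762 the order of the 5 tested genes was the same, at 2147, 417, 33.7, 9.10 and 0.645 CPM per kb. Counted per kb of its own exon bases, INS stood at 3069 CPM per kb and IGF2 at 58.9 CPM per kb with DMSO.

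INS varied more between replicates than most genes of its level. The SD of its log2 CPM within groups was 0.330, at the 97.9th percentile of the 47 genes of similar level, while the median over all genes tested was 0.119. That of IGF2 was 0.166, at the 95.4th percentile of 922 genes. IAPP, SST and GCG, at 0.109, 0.0751 and 0.275, lay between the 55.9th and the 56.7th percentile of genes of their level.

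**Figure D3:**
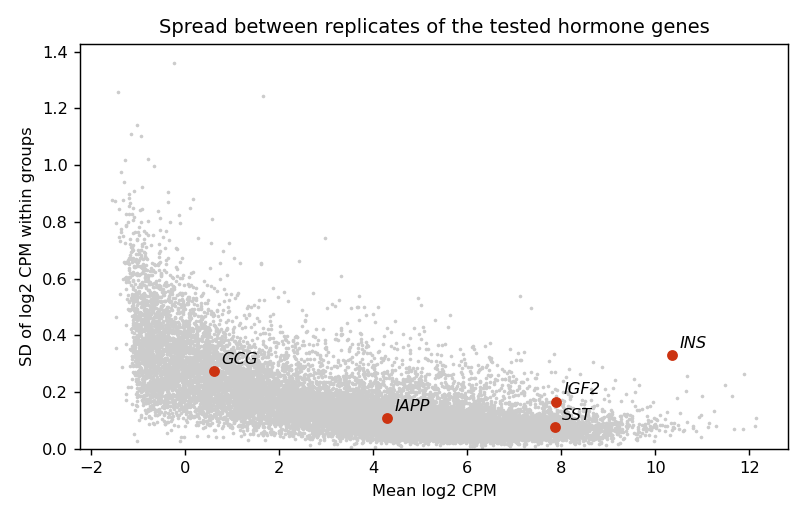
SD of log2 CPM within groups against mean log2 CPM for the genes tested (grey), with the 5 tested hormone genes in red. INS, at an SD of 0.330, lies above most genes of its level, and SST, at 0.0751, lies within the bulk.

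The pattern of INS over the 6 samples was shared with genes of high GC content. The exons of INS hold 65.2% G and C, more than 97.5% of the genes tested, whose median was 47.6%. The 5 genes with the smallest difference from INS in log2 CPM, each centred on its mean over the 6 samples, were TRABD, ULK1, BTBD2, LLGL2 and SPHK2. Their root mean square difference from INS lay between 0.0253 and 0.0353, while INS itself deviated from its mean by 0.284, and their GC content lay between 60.9% and 65.2%. This is a description over 6 samples, with no test.

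The trend of counts with GC content and exon length, fitted in each library over the genes, had a log2 value at INS of -0.11, -0.21 and 0.18 in the DMSO samples and 0.18, -0.10 and 0.14 in the AZD7762 samples. The libraries with a positive value were the same 3 in which INS was high. With these trends taken out, INS was at 1184, 1177 and 1468 CPM with DMSO and 1312, 1213 and 1466 CPM with AZD7762. The means were then 1276 ± 166 and 1330 ± 127 CPM (SD, n = 3 each) and the log2 fold change was 0.06. The log2 fold change of SST was 0.17 in that fit (edgeR adjusted p = 0.125). Libraries came from either of 2 kits, and which kit was used for which sample is not given, so the part of the kit in this pattern was not tested.

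**Figure D4:**
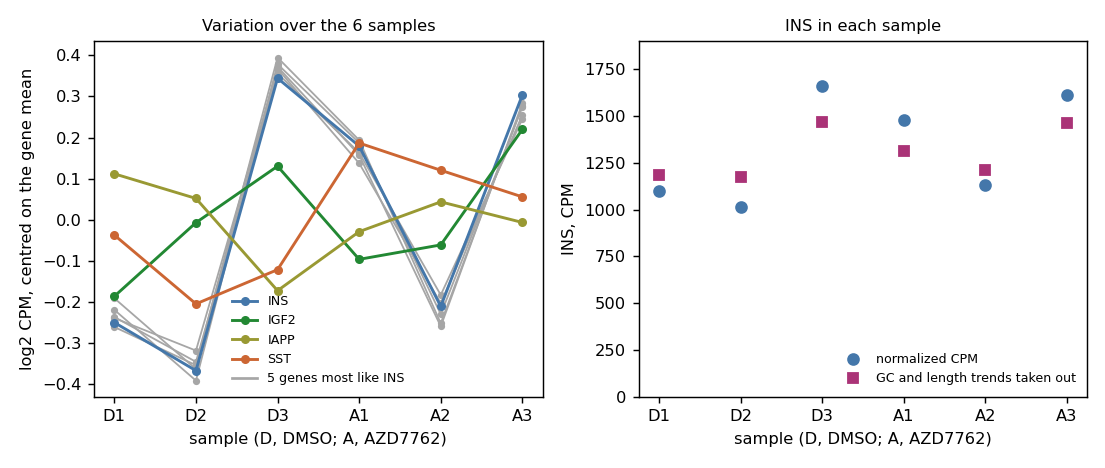
Left, log2 CPM of 4 hormone genes and of the 5 genes most like INS (grey) in each sample, centred on the mean of each gene, with lines that only join the values of a gene. Right, INS in CPM before and after the trends with GC content and exon length were taken out, which narrowed the DMSO samples from an SD of 351 to 166 CPM.

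IAPP did not share this pattern. Among the 5 genes most like it were TMEM74, GINS3 and AHCYL1, with root mean square differences between 0.0224 and 0.0244 on the centred log2 scale against an own deviation of 0.0887, and GC contents of 39.1%, 47.3% and 48.0%. The other 2 are identifiers without a symbol, at differences of 0.0140 and 0.0244 and GC contents of 43.0% and 51.8%.

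Among the transcription factors of hormone genes, MAFA and FOXA2 rose and the hormone genes they are known to act on did not pass the test. Of 20 factors listed, 18 were tested, 2 were called higher and 0 lower, against 0.708% of all genes called, with 8 above and 10 below 0 and a median log2 fold change of -0.0064. At an unadjusted p under 0.05 there were 6 of the 18, against 9.68% of all genes, and the groups did not overlap for 4 that were higher and 3 that were lower, against 15.0% of all genes. MAFA, which binds the C1 element of the insulin promoter, was measured at 15.2, 15.4 and 21.2 CPM with DMSO. With AZD7762 it was measured at 40.7, 36.0 and 44.5 CPM, a log2 fold change of 1.24 (SE 0.122, edgeR adjusted p = 0.000133). FOXA2, a forkhead factor of the pancreas, was measured at 399, 381 and 413 CPM with DMSO and 521, 534 and 531 CPM with AZD7762 (log2 fold change 0.41, SE 0.0579, edgeR adjusted p = 0.00317). Both were separated between the groups by more than the range of either.

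NEUROD1, which binds the E1 element of the insulin promoter, was at 1425, 1364 and 1359 CPM with DMSO and 1139, 1233 and 1160 CPM with AZD7762. The groups did not overlap, and its log2 fold change of -0.23 (SE 0.0631, edgeR adjusted p = 0.182) did not pass the threshold. INSM1, the most abundant factor of the list per kb and a regulator of endocrine differentiation, was at 1095, 926 and 1088 CPM with DMSO and 875, 909 and 891 CPM with AZD7762 (log2 fold change -0.22, edgeR adjusted p = 0.335). DESeq2 called 3 factors of the list, MAFA and FOXA2 higher and NEUROD1 lower, against 0.992% of all genes. POU3F4 and ONECUT1 had 0 counts in all samples.

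The promoter of INS is shown because it carries the element bound by MAFA, and that of SST because SST is the tested hormone gene whose groups did not overlap. Both come from RefSeq (GRCh38.p14), where 8 of the 9 genes had a promoter, and both are printed 5′ to 3′ on the minus strand as the 250 bases before the start site. In the INS promoter (chr11:2161210-2161459) capitals mark the motifs C1, E1, TGACG and TAAT, and in the SST promoter (chr3:187670395-187670644) they mark TGACGTCA, the cyclic AMP response element, and TAAT.
INS: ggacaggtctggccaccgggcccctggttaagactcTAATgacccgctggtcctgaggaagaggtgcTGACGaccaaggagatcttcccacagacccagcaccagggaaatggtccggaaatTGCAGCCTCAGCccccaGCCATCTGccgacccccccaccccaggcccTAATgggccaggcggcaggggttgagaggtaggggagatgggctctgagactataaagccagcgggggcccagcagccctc
SST: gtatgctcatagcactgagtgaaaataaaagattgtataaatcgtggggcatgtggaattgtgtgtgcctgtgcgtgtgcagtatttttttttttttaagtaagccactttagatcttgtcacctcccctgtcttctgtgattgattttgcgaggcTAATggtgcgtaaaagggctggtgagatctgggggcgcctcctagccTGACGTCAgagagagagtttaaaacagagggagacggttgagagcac
Motifs were searched on both strands of the window from 250 bases before to 50 bases after the start site. The C1 element (TGCAGC, any 1 base, then TCAGC) matched in INS at -128 to -117 and is in 0.094% of 35116 promoters, and the E1 element (GCCATCTG) matched at -111 to -104 and is in 1.13%. TGACGTCA matched in SST at -47 to -40 and is in 1.85% of promoters. TGACG, which is part of TGACGTCA and was counted there too, is in 24.6%, and TAAT, the core of sites for homeodomain factors such as PDX1, is in 50.2%. The start sites of INS and INS-IGF2 are the same in this table, so they share this promoter. A match of letters is a description of the window, not a measured site.

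The genes that mature prohormones were all above the filter. Of the 11 listed, 0 were called in either direction by edgeR or DESeq2, against 0.708% of all genes, and 0 were at an unadjusted p under 0.05, against 9.68% of all genes. The log2 fold change was above 0 for 9 and below 0 for 2, with a median of 0.06 beside 0.0076 over all genes. CPE, the carboxypeptidase that trims cut prohormones, was the most abundant per kb, at 711 CPM per kb with DMSO and 741 with AZD7762. SCG5, the chaperone of convertase PCSK2, stood at 326 and 331 CPM per kb, and PCSK2 itself had a log2 fold change of 0.10 (edgeR adjusted p = 0.652). P4HB, a disulfide isomerase, had a log2 fold change of 0.11 (edgeR adjusted p = 0.623). PCSK1N, an inhibitor of convertase PCSK1 with a GC content of 68.9%, was at 112, 91.9 and 217 CPM with DMSO and 167, 107 and 178 CPM with AZD7762. Its high samples were those of INS.

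Among the receptors of these hormones, IGF2R, SSTR3 and SSTR2 had the highest CPM, and 7 of those listed did not pass the filter. Of 19 receptor genes, 12 were tested and 0 were called in either direction by edgeR or DESeq2, with 2 at an unadjusted p under 0.05, against 0.708% of all genes called and 9.68% at an unadjusted p under 0.05. The groups did not overlap for 3 of the 12 (SSTR2, SSTR3 and SSTR4, all lower with AZD7762), against 15.0% of all genes. The log2 fold change was below 0 for 8 and above 0 for 4, with a median of -0.094. The 5 somatostatin receptor genes all had log2 fold changes below 0 that did not pass the test. SSTR3 was the most abundant per kb (47.8 CPM per kb with DMSO and 44.4 with AZD7762), with a log2 fold change of -0.11 and an edgeR adjusted p of 0.573. SSTR2 was at 190, 182 and 182 CPM with DMSO and 163, 173 and 161 CPM with AZD7762 (log2 fold change -0.16, edgeR adjusted p = 0.390). SSTR1, SSTR4 and SSTR5 had log2 fold changes of -0.11, -0.44 and -0.46, and the highest sample of SSTR4 was at 2.24 CPM and that of SSTR5 at 1.53 CPM.

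For the insulin and growth factor receptors, the log2 fold change was -0.08 for INSR, -0.08 for IGF1R and 0.03 for IGF2R, which binds and clears IGF2 (edgeR adjusted p = 0.782, 0.744 and 0.923). GLP1R, the receptor of the glucagon-like peptide made from GCG, was at 0.826 CPM with DMSO, with a log2 fold change of 0.20. CALCR, which forms amylin receptors with RAMP proteins, was also low, at -0.16 on the log2 scale, and RAMP1 and RAMP2 were at 0.24 and 0.22. RAMP3, NPY2R and NPY5R had 0 counts in all samples.

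**Figure D5:**
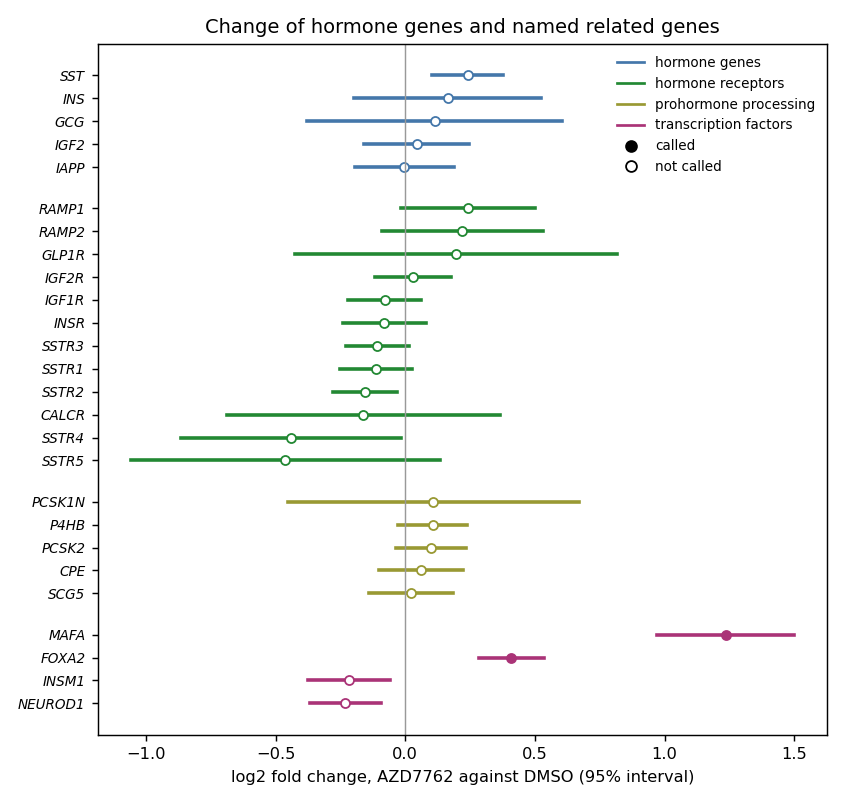
log2 fold change of AZD7762 against DMSO with its 95% interval for the 5 tested hormone genes, the tested receptors and the named processing genes and transcription factors, filled where the adjusted p was under 0.05. MAFA (1.24) and FOXA2 (0.41) are filled, and no hormone gene or receptor is.

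Genes next to INS in the insulin superfamily were scarce. Of 8 listed, 2 (RLN1 and RLN2, the relaxins) were tested, with log2 fold changes of -0.17 and 0.0039, and 0 were called by edgeR or DESeq2 (0.708% of all genes), with 0 at an unadjusted p under 0.05 (9.68% of all genes). IGF1 and INSL5 had 0 counts in all samples. INSL3 had 0 counts in each DMSO sample and 2, 0 and 3 counts with AZD7762, so the groups overlapped. Of 13 genes of the IGF2 locus or that bind IGF2, 9 were tested and 0 were called by edgeR or DESeq2, with 1 at an unadjusted p under 0.05, shares near those of all genes (0.708% and 9.68%), with 7 above 0 and a median log2 fold change of 0.046. IGFBP2, which binds IGF2 outside the cell, was at 65.0, 55.9 and 71.3 CPM with DMSO and 81.3, 67.9 and 74.7 CPM with AZD7762 (log2 fold change 0.22, edgeR adjusted p = 0.449). IGFBP4 and IGFBP5 were at -0.25 and -0.01, and ASCL2, a neighbour of IGF2, at 0.0074.

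Other peptide hormones were mostly at 0 counts or below the filter. Of 30 listed, 12 were tested and 0 were called by edgeR or DESeq2 (0.708% of all genes), with 2 at an unadjusted p under 0.05 (9.68% of all genes), 8 above 0, 4 below 0 and a median log2 fold change of 0.051. GIP, VIP, TAC1, GRP, PENK, AGRP and UTS2 had 0 counts in all samples. VGF, a granule peptide precursor, was the most abundant per kb, at 33.0 CPM per kb with DMSO and 33.9 with AZD7762. UCN3, a peptide of mature β cells, was at 12.9 and 13.4 CPM per kb, and POMC, the precursor of corticotropin, at 6.48 and 6.69. ADM, the gene for adrenomedullin, was at 4.29, 3.71 and 5.17 CPM with DMSO and 5.44, 6.69 and 6.04 CPM with AZD7762, and its groups did not overlap, as for 15.0% of all genes (log2 fold change 0.47, edgeR adjusted p = 0.262). NMB, the gene for neuromedin B, was at 0.42 on the log2 scale (edgeR adjusted p = 0.411).

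The labelled cell type was compared with its markers. All 13 β cell markers passed the filter, and 1 of them, MAFA, was called, against 0.708% of all genes. Of 9 α cell markers all 9 passed, led by TTR at 2008, 1884 and 1690 CPM with DMSO and 2127, 2113 and 1882 CPM with AZD7762, while GCG was at 1.40 CPM with DMSO. Of the 7 δ cell markers 5 passed, led by SST. The 6 δ cell markers other than SST, of which RBP4 was the most abundant, summed to 61.3, 54.5 and 61.9 CPM with DMSO and 60.2, 59.2 and 55.9 CPM with AZD7762 (means 59.2 ± 4.11 and 58.4 ± 2.27 CPM, SD), and 0 of them were called, against 0.708% of all genes. The sum of these 6 markers overlapped between the groups where SST did not. In such bulk samples more cells with SST and more SST mRNA per cell cannot be told apart.

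Of the 4 markers of PP cells other than PPY, 4 passed the filter, and of the 3 of ε cells other than GHRL, 3 passed, with 0 called in either list, against 0.708% of all genes. The most abundant per kb were ETV1 in the first list, at 6.97 CPM per kb with DMSO and 6.80 with AZD7762, and ACSL1 in the second, at 13.7 and 14.3 CPM per kb. ANXA13 of the second list, named after its values were seen, was at 3.89, 2.76 and 2.87 CPM with DMSO. With AZD7762 it was at 4.01, 4.75 and 4.12 CPM (log2 fold change 0.42, edgeR adjusted p = 0.411). Its groups did not overlap, as for 15.0% of all genes tested, whereas those of PHGR1 and ACSL1 did. The 3 ε cell markers summed to 98.0, 94.8 and 87.8 CPM with DMSO and 101, 101 and 95.6 CPM with AZD7762, and these sums overlapped. Of 8 acinar markers, PRSS1, CELA3A, CTRB1, PNLIP, REG1A and AMY2A had 0 counts in all samples, and CLPS was the more abundant of the other 2 per kb, at 7.40 to 10.3 CPM. The other was CPA1, named here after its values were seen, at 22.6, 20.9 and 21.9 CPM with DMSO and 27.5, 24.7 and 24.9 CPM with AZD7762 (log2 fold change 0.24, edgeR adjusted p = 0.308). CPA1 did not overlap between the groups, as for 15.0% of all genes tested, whereas CLPS did overlap. The 8 acinar markers, of which only CPA1 and CLPS had counts, summed to 31.0, 28.4 and 29.3 CPM with DMSO. With AZD7762 they summed to 37.8, 32.9 and 32.3 CPM. This sum was separated in the same direction as SST, and its part in the difference of SST was not tested. Of 5 endothelial markers 4 were matched to the annotation (PECAM1 was not analysed here) and none passed the filter, with 0 counts of CDH5 and KDR in all samples and PLVAP, the most abundant per kb, with 1 count in 1 AZD7762 sample. Ductal, mesenchymal and immune markers passed for 3 of 6, 4 of 6 and 1 of 4 genes, led per kb by KRT19, COL1A1 and CD14, and MMP7 had 0 counts. COL1A2, also named after its values were seen, was at 2.74, 3.23 and 2.78 CPM with DMSO and 4.53, 3.89 and 4.64 CPM with AZD7762 (log2 fold change 0.58, edgeR adjusted p = 0.125), and it passed the threshold when no filter was used. The 6 mesenchymal markers summed to 15.1, 15.1 and 20.4 CPM with DMSO and 19.1, 17.0 and 20.2 CPM with AZD7762, and these sums overlapped.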

How the data were processed

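RNA was measured in 3 DMSO and 3 AZD7762 samples of EndoC-βH1 cells. Per the labels, the authors checked reads with FastQC 0.10.1 and trimmed them with cutadapt 1.18. They aligned them to GRCh37 (aligner not given in the sources used here) and counted reads per gene by HTSeq-count. The deposited values are raw counts per Ensembl gene, without scaling. The strand setting and the treatment of shared exons are not given, so overlapping genes are uncertain.

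A GRCh37 annotation of another release supplied symbols, exon lengths and GC content and matched 58646 of 60671 identifiers. The analysis used R 4.3.3, edgeR 4.0.16 (filterByExpr, TMM, quasi-likelihood test, two-sided, Benjamini-Hochberg over the 17649 genes tested, threshold 0.05) and limma 3.58.1. DESeq2 1.42.0 was an alternative, as were other scalings, filters, the replicate number as a term, trends with GC content and exon length (lowess span 0.3), and leaving out each sample. Intervals are 95% intervals of the fit. The biological coefficient of variation was 7.15%. The procedure was tested on simulated data.

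The 9 members and all lists were chosen with earlier results of these data known. Genes named were the members, all tested receptors and, of each other list, every gene called, the 2 with the smallest p and the 3 highest per kb, and of each marker list the most abundant gene per kb and those at 0. CPA1, COL1A2, ANXA13 and RFX6 were added after their values were seen. Floors cover counting error only, and intervals of the fit cover the spread between samples. A further gene is not reported here.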

Additional observations from a re-analysis of the deposited data

How the results depend on the processing

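The number of genes called was 125 and lay between 116 and 175 with other scalings, a minimum of 10 counts in every sample, DESeq2 or without mitochondrial genes (this last chosen after seeing the data). It was 330 with no low-count filter, 232 with the trends in GC content and exon length taken out, and 77 (without AZD7762 replicate 1) to 168 (without DMSO replicate 3) when a sample was left out. The number of hormone genes called was 0 in these fits, except 1, SST, without a filter (log2 fold change 0.24). MAFA and FOXA2 stayed above 0 in all fits.

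With the replicate number as a term (replicate block), 378 genes were called, among them 1 hormone gene, SST (log2 fold change 0.24, adjusted p = 0.00988), and 4 transcription factors, of which MAFA and FOXA2 were higher and NEUROD1 and RFX6 lower. Deviations of same-numbered samples correlated at 0.0533, 0.124 and 0.210, and those of differently numbered samples at -0.253 to 0.175. Not every sample correlated best with its own number. The labels give only a number, and whether same-numbered samples share more than that was not tested.

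The sign of small log2 fold changes, none of them called, depended on the fit, and the cause was not tested. With the trends taken out, IGF2 was at -0.018, IAPP at 0.028, ASCL2 at -0.11, POMC at -0.022, UCN3 at -0.021 and VGF at -0.054. With library totals alone, IGF2R was at -0.0066, SCG5 at -0.012, RLN2 at -0.032 and ASCL2 at -0.028. RLN2 was at -0.0010 with at least 10 counts in every sample and at -0.011 with DESeq2. Leaving out 1 sample at a time, the range was -0.061 to 0.12 for IGF2, -0.077 to 0.043 for IAPP and -0.097 to 0.31 for GCG. It was -0.33 to 0.073 for CALCR, -0.011 to 0.43 for GLP1R, -0.017 to 0.076 for IGF2R, -0.13 to 0.57 for PCSK1N and -0.035 to 0.077 for SCG5. It was -0.34 to 0.015 for RLN1, -0.13 to 0.24 for RLN2, -0.099 to 0.14 for ASCL2 and -0.032 to 0.0080 for IGFBP5. For POMC it was -0.12 to 0.39, for UCN3 -0.040 to 0.12 and for VGF -0.14 to 0.29. Other values that were not called moved by over 1.5 times when 1 sample was left out. RAMP1 was at 0.11 and RAMP2 at 0.086 without AZD7762 replicate 1 (0.14 and 0.12 with the trends taken out). SSTR1 was at -0.071, SSTR5 at -0.25, INSR at -0.045 and CPE at 0.012 without DMSO replicate 3. IGFBP2 was at 0.13 without DMSO replicate 2, IGF1R at -0.14 without AZD7762 replicate 3, PCSK2 at 0.065 without AZD7762 replicate 2 and NMB at 0.25 without AZD7762 replicate 1. SSTR3 was at -0.17 with the trends taken out (edgeR adjusted p = 0.168). NEUROD1 passed the threshold with DESeq2, without a filter and with the block. The level of a gene near 3 counts is limited by depth.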
